A study of Mus musculus with 3 samples.

Results

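Described here are 363 cells of the mouse embryonic stomach that carried abundant messenger RNA of the pepsinogen gene Pga5. Few or no markers of a defined gastric lineage were detected in them. They were chosen by measured values. Cells first had to pass 2 filters, 500 or more detected genes and no more than 20% mitochondrial counts, and a member then had Pga5 at 1% or more of its unique molecular identifiers (UMIs, each one a counted transcript). It also had fewer than 2 of the 5 pit genes Gkn1, Gkn2, Mucl3, Psapl1 and Lypd8l detected, fewer than 3 of the 6 neck and chief genes Gkn3, Pgc, Clps, Muc6, Cblif and Cpn1, and at most 1 UMI of the parietal genes Atp4a and Atp4b together. The rule found 214 of 7372 passing cells in the control library, 15 of 9029 in the YAP5SA library and 134 of 5201 in the Yap knockout library, 363 of 21602 in all. They are called marker-poor Pga5-high cells below, because most of them did hold a UMI of at least 1 of the 13 excluded lineage genes.

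All 3 libraries came from the hindstomach, the glandular part of the stomach, of mouse embryos at embryonic day 18.5, digested with trypsin and DNase I and freed of red blood cells by lysis. The control carried Shh-Cre alone, the second group Shh-Cre with the YAP5SA allele, and the third Shh-Cre with both Yap alleles flanked by loxP sites. Shh-Cre is a recombinase under the Shh locus that is active in the gut epithelium, so recombination is directed at the epithelium and the controls carry the Cre allele too. YAP5SA is YAP with its inhibitory phosphorylation sites mutated. Each genotype is 1 library, for which the sources used here do not give the number of embryos, and so no test between genotypes was possible. Intervals given are 95% intervals of counting error only.

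The gastric epithelium renews from progenitors that give rise to surface mucous (pit) cells, mucous neck cells, zymogenic chief cells, acid-secreting parietal cells and hormone cells. Pepsinogens and chymosin are secreted precursors of aspartic proteases that cleave milk and food proteins, and both are made by the glandular stomach around birth. Pit cells secrete gastrokines and trefoil factor 1 with surface mucin, while neck cells secrete trefoil factor 2 and gland mucin, and chief cells secrete pepsinogen C and, in rodents, intrinsic factor.

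Epithelial identity was checked against genes the rule did not use. All 10 measured genes of a general epithelial list were at least 2-fold higher in the marker-poor cells than in the rest of the passing cells, averaged over the control and Yap knockout libraries, with a median log2 ratio of 2.36 against -0.26 over all genes. Among 2989 genes measured in both libraries, 6.99% were at least 2-fold higher in the marker-poor cells and 11.5% at least 2-fold lower. Epcam, an adhesion molecule of epithelial cells, nevertheless was detected in only 54 of the 214 control members, in 38 of the 134 from the Yap knockout and in 2 of the 15 from YAP5SA. In the control library, 54 of the members met the definition used for stromal cells (collagen I and III genes at 1% or more of UMIs and no Epcam UMI), whereas no member of the other libraries did. The epithelial list took more than 1% of UMIs in 74 of 214 control members. Of the Pga5-high control cells excluded by the pit and by the neck and chief genes, 57 of 107 and 23 of 109 did so. The Yap knockout numbers were 24 of 134, 94 of 144 and 55 of 108. Cells with Pga5 under 1%, most of the rest, did so in 120 of 6938 and 148 of 4795 cases.

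The median depth of passing cells was 4949.5 UMIs for control, 5255 for YAP5SA and 5021 for Yap knockout. Cell names recurred between libraries (1388 to 2409 names for a pair of libraries), with 1 name in common among the members. The names are running numbers, so whether such cells share a barcode was not tested. The deposited cells all had 1000 UMIs or more.

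The marker-poor cells made up 2.90% of passing cells (2.53 to 3.31) in the control library. The Yap knockout share was 2.58% (2.16 to 3.04) and the YAP5SA share 0.166% (0.0930 to 0.274). Their intervals overlapped between control and Yap knockout, and the YAP5SA share lay far below both. Among cells with an Epcam UMI, members were 54 of 631 (8.56%) in control and 38 of 903 (4.21%) in Yap knockout. There the intervals did not overlap, with a lower limit of 6.49% for control and an upper limit of 5.73% for Yap knockout. The YAP5SA share of such cells was again the lowest, 2 of 2460 (0.0813%). Leaving out members with collagen and stroma genes above 1% of UMIs lowered the control share of passing cells to 0.760%. It left the Yap knockout share of passing cells at 2.54%. Of the cells with Pga5 under 1%, 90.8% exceeded that collagen limit in the control and 23.4% in the Yap knockout. As a share of all Pga5-high cells, 434, 21 and 406 in number, the marker-poor cells were 49.3% (44.5 to 54.1), 71.4% (47.8 to 88.7) and 33.0% (28.4 to 37.8) for control, YAP5SA and Yap knockout. The remaining Pga5-high cells formed a pit set of 107, 3 and 144 cells in the same order, a neck and chief set of 109, 3 and 108 cells, and a parietal set of 4, 0 and 20 cells.

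The members were shallow cells. Control, YAP5SA and Yap knockout members had medians of 1976, 2077 and 2014.5 UMIs, against 6033 and 10316 UMIs for the pit set and 5373 and 7446.5 for the neck and chief set of the control and Yap knockout libraries. Of the members, 109 control and 67 Yap knockout cells had fewer than 2000 UMIs, and 30 and 17 had 5000 or more. The median Pga5 share of a member's UMIs was 2.38% for control (range 1.01 to 9.60), 2.32% for YAP5SA (1.07 to 8.39) and 1.63% for Yap knockout (1.01 to 8.33). Stromal cells of the same libraries, which should lack the gene, had (with the 77 control cells of that definition that were Pga5-high left out) a median Pga5 share of 0.0411%, 0% and 0.0567% with median depths of 4766, 4736.5 and 5218 UMIs, and the limit of 1% lay above these medians. Over all 4138 control cells of the stromal definition the median was 0.0419% and the highest 6.93%. The definition took these 4138 of 7372 passing cells in control, 2416 of 9029 in YAP5SA and only 360 of 5201 in Yap knockout. Whether it picked like cells in each library was not tested.

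**Figure D1:**
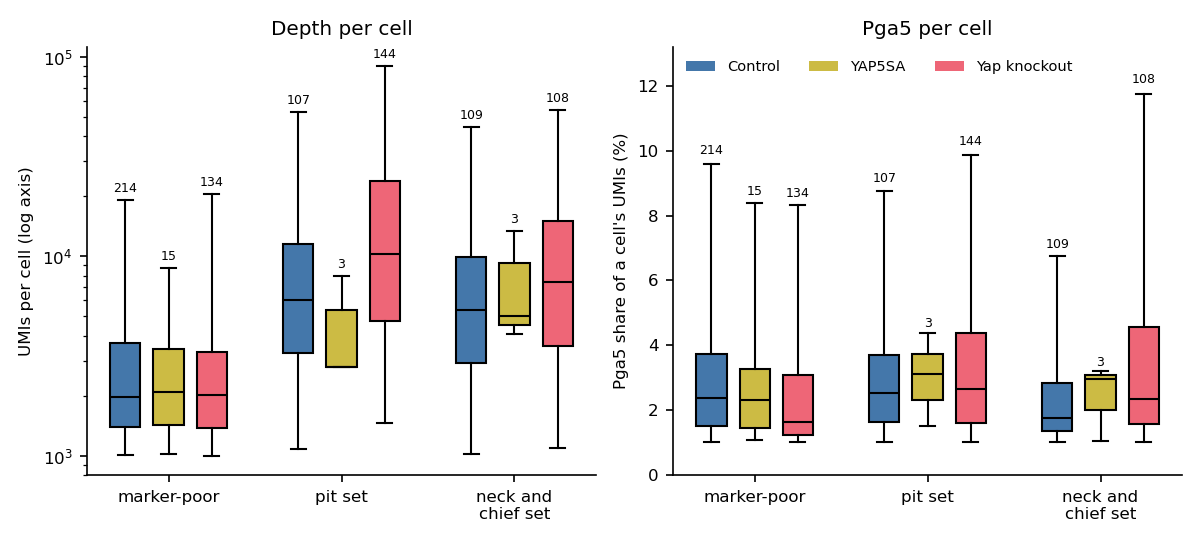
Depth and Pga5 level of the 3 kinds of Pga5-high cell. The left panel gives UMIs per cell on a log axis and the right panel the Pga5 share of a cell's UMIs in percent; boxes span the quartiles with the median as a line, whiskers run from the lowest to the highest cell, and the number above each whisker is the number of cells. The marker-poor cells have medians of 1976, 2077 and 2014.5 UMIs in control, YAP5SA and Yap knockout, below the pit and neck sets, while their Pga5 shares span 1.01 to 9.60%.

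The excluded lineage genes were seen in part in many members. Members with no pit gene detected numbered 134 of 214 for control, 9 of 15 for YAP5SA and 105 of 134 for Yap knockout, and those with no neck or chief gene 74, 6 and 34. Cells with none of the 13 genes numbered 42, 4 and 23. Clps, which encodes the pancreatic lipase cofactor colipase, was the gene seen most often, with a UMI in 109, 9 and 91 members. Mucl3, a mucin-like membrane protein of surface cells, was seen in 54, 5 and 18 members, and Pgc, pepsinogen C, in 48, 0 and 38.

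Cells lay close on either side of each limit, and depth differed across the lineage limits. With those limits kept, 29, 4 and 37 cells held 0.8 to 1.0% Pga5 and 21, 2 and 25 held 1.0 to 1.2%. In the control, the 80 members with 1 pit gene had a median of 2563 UMIs, and the 52 excluded cells with exactly 2 had 8029.5. The 52 control members with 2 neck or chief genes had 3166.5 UMIs, and the 47 excluded cells with exactly 3 had 4725. The corresponding Yap knockout medians were 2063 and 8596.5 at the pit limit and 2449.5 and 5295 at the neck limit.

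Every cell was therefore thinned to 1000 UMIs and the rule applied again. Of the control pit set, 60 of 107 cells (56.1%) then met the marker-poor rule, and of the control neck and chief set 61 of 109 (56.0%). In the Yap knockout, 90 of 144 pit cells and 54 of 108 neck and chief cells did so. Of the marker-poor cells, 208 of 214 and 123 of 134 met the rule again. Thinning only removes UMIs, so a member could not gain a lineage gene and could leave only through its Pga5 share. These counts of returning members therefore cannot show whether the group is stable. At this equal depth the Yap knockout share, 5.96% (5.33 to 6.64), lay above the control share, 4.83% (4.35 to 5.34), the reverse of their order without thinning, and the YAP5SA share was again the lowest at 0.222%.

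**Figure D2:**
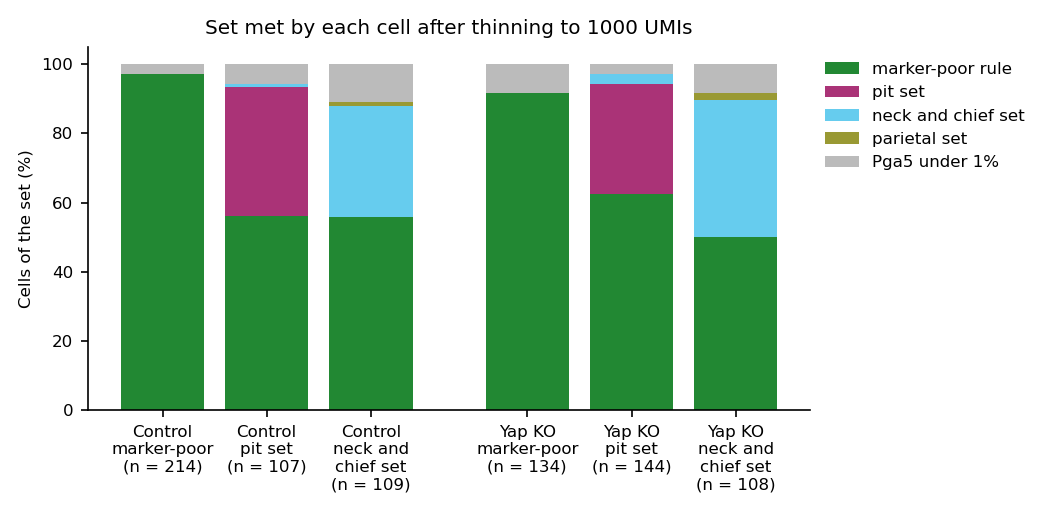
Each Pga5-high set after every cell was thinned to 1000 UMIs. Bars show the percent of a set's cells (vertical axis) that met each set's rule after thinning, for the control and Yap knockout libraries, with the number of cells under each bar; 56.1% of the control pit set and 56.0% of the control neck and chief set met the marker-poor rule.

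Levels below are sums of UMIs over the cells of a set, divided by that sum and scaled to one fixed total per set (CPM, the usual unit of scaled counts). The control, YAP5SA and Yap knockout member sums held 671397, 41099 and 402319 UMIs, and the 10 deepest cells gave 19.9%, 84.6% and 27.9% of them. A gene with 0 UMIs in a sum could still be present at up to 4.47, 73.0 and 7.46 CPM, the level of 3 counts.

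The aspartic protease Cym, which the rule did not use, was abundant in the marker-poor cells, between the pit and the neck and chief set in the control and below both in the Yap knockout. Pga5 itself, on which they were chosen, reached 32072 CPM in control members, 24283 in those of YAP5SA and 29892 in those of the Yap knockout. Cym, which encodes prochymosin, the milk-clotting protease of the newborn stomach, stood at 44555, 48858 and 33431 CPM in the same order. All 3 member sums lay far above the stromal cells of the control (880 CPM) and Yap knockout (1201 CPM) libraries. The pit sets had 38022 and 41544 CPM of Cym in the control and Yap knockout, and the neck and chief sets 61149 and 60869. Cym was 1.37-fold (1.35 to 1.39) lower in control and 1.82-fold (1.79 to 1.85) lower in Yap knockout members than in the neck and chief set. Cym took 1% or more of the UMIs in 173 of 214, 15 of 15 and 88 of 134 members, with medians of 3.23%, 3.99% and 1.62%.

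Cym and Pga5 did not go together to the same degree in the 3 libraries. In the control, 504 cells held Cym at 1% or more of their UMIs, and 344 of them (68.3%, 64.0 to 72.3) also held Pga5 at 1% or more. In the Yap knockout, 293 of 504 such cells (58.1%, 53.7 to 62.5) did so. In the YAP5SA library, 1120 cells, or 12.4% of those passing, held Cym at that level, but only 19 (1.70%, 1.02 to 2.64) held Pga5 at 1% or more. No Pga5 UMI was found in 885 of these 1120 YAP5SA cells (79.0%), against 3 of 504 in each of the other libraries. Summed over the Cym-high cells of control, YAP5SA and Yap knockout, Pga5 stood at 21323, 217 and 26911 CPM and Cym at 50706, 35613 and 49286. All 15 YAP5SA members were among these 1120 cells. Pga5 in stromal cells was also lowest in YAP5SA, at 20.6 CPM with a UMI in 10.1% of cells. Stromal cells of the Yap knockout had 622 CPM and a UMI in 90.0% of cells. Those of the control had 487 CPM and 83.2% without the Pga5-high cells among them, and 674 CPM and 83.5% with them.

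Secreted mucosal proteins were also detected in the members. Bpifb1, a secreted protein of the bactericidal/permeability-increasing fold family, had 12286 CPM in control, 10925 in YAP5SA and 7303 in Yap knockout members. After thinning it was seen in 98.6% of control and 97.0% of Yap knockout members, against 22.8% and 21.9% of stromal cells. Muc5b, a gel-forming mucin, stood at 1641, 1411 and 1397 CPM in members, 2051 and 1125 in the pit sets of control and Yap knockout, and 182 and 218 in the neck and chief sets. Members lay within 1.25-fold of the pit sets in this gene and far above the neck and chief sets in both libraries.

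The trefoil factors separated the sets further. Tff1, the trefoil peptide of pit cells, was at 3368 CPM in control members, 1655 in YAP5SA members and 2220 in Yap knockout members. The pit sets had 14266 and 13510 CPM in control and Yap knockout, and the neck and chief sets 387 and 1184, so the members lay between them in both libraries. At 1000 UMIs per cell, Tff1 was seen in 60.3% of control and 56.7% of Yap knockout members, 86.9% and 84.7% of the pit sets, 26.6% and 30.6% of the neck and chief sets, and 14.9% and 20.8% of stromal cells. Tff2, the trefoil peptide of neck cells, stood at 1406, 195 and 423 CPM in members and 2181 and 1020 in the pit sets of control and Yap knockout. The neck and chief sets had 682 and 683 CPM of Tff2, below the control members and above the Yap knockout members. In the Yap knockout 1 cell gave 41.2% of the members' Tff2 UMIs.

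Of the 4 genes that had been named along with Pga5 as markers of these cells, only Gstm1 in the control was higher in them than in the pit set (control and Yap knockout compared). Gstm1, a glutathione transferase, was at 1244 CPM in control members, 779 in those of YAP5SA and 867 in those of the Yap knockout, against 1094 and 1475 in the pit sets. Cbr3, a carbonyl reductase, stood at 182, 146 and 124 CPM (the YAP5SA value rests on 6 UMIs), against 213 and 303. Agr2, a protein disulfide isomerase of mucus-secreting cells, stood at 402, 414 and 288 CPM, against 421 and 601. Sprr2a3, a small proline-rich protein of epithelial barriers, stood at 277, 292 and 157 CPM, against 598 and 485. In the Yap knockout all 4 were lower in members than in the pit set, by 1.70-fold (1.52 to 1.90), 2.44-fold (1.83 to 3.32), 2.08-fold (1.72 to 2.54) and 3.10-fold (2.40 to 4.06). In the control Gstm1 was 1.14-fold (1.04 to 1.24) higher, Sprr2a3 was 2.16-fold (1.83 to 2.56) lower, and the intervals for Cbr3 (0.935 to 1.48) and Agr2 (0.897 to 1.22) spanned 1. All 4 were above the stromal level in both libraries.

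**Figure D3:**
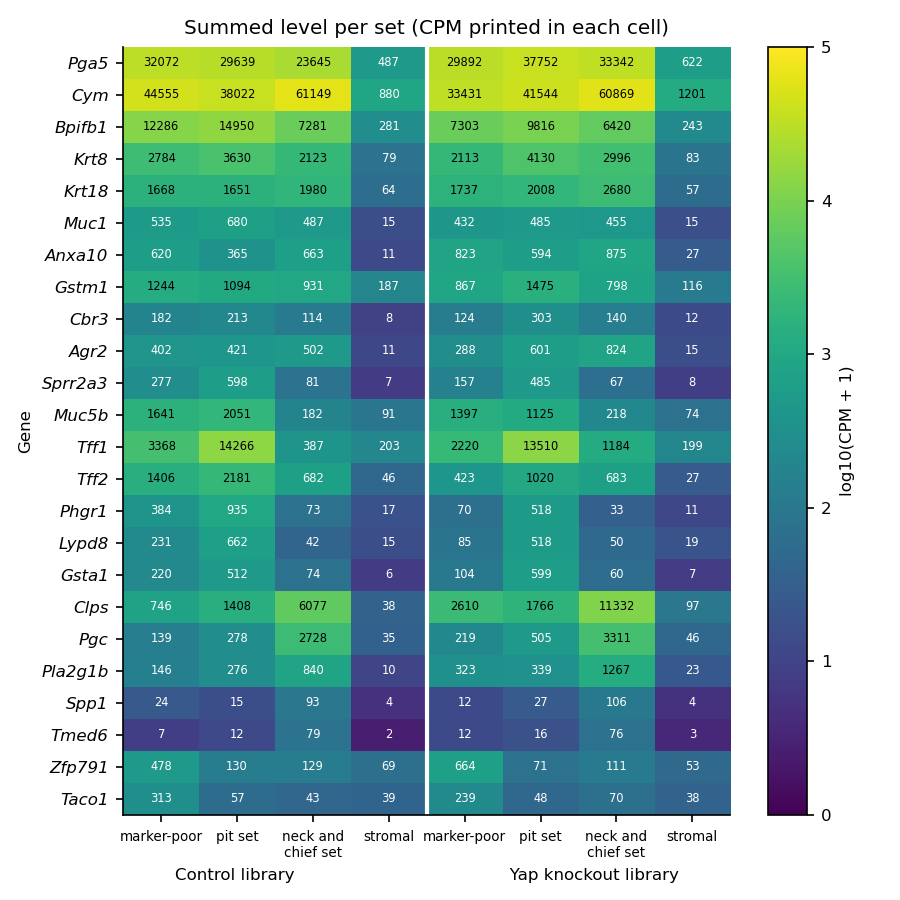
Summed level of 24 genes in the marker-poor cells, the pit set, the neck and chief set and stromal cells of the control and Yap knockout libraries. Colour gives log10(CPM + 1) and the number in each field is the CPM; Tff1 is highest in the pit sets (14266 and 13510), Clps in the neck and chief sets (6077 and 11332), and Zfp791 in the marker-poor cells (478 and 664).

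The 20 genes furthest above all other passing cells held secreted proteins, mucins and epithelial structure genes beside genes of other kinds. The highest mean log2 ratio was that of Anxa10, an annexin of gastric epithelium, at 14.8-fold (13.3 to 16.4) in the control and 6.42-fold (5.72 to 7.17) in the Yap knockout. Muc5b followed, at 11.1-fold and 7.76-fold. Cym was 12.1-fold and 4.37-fold higher, Bpifb1 12.3-fold and 4.28-fold, and the transmembrane mucin Muc1 10.5-fold and 5.12-fold. Ern2, the sensor of endoplasmic reticulum stress in mucus-secreting cells, was 10.1-fold and 7.89-fold higher. Cldn18, the tight junction protein of the stomach, the simple-epithelium keratins Krt8 and Krt18 and the forkhead factor Foxq1 also stood among the leading 20. So did Myo16, a myosin, at 13.6-fold and 7.27-fold, Chad, a cartilage matrix protein, at 18.3-fold and 6.59-fold, Lmo7 and Ccnb1ip1. Anxa10 stood at 620 and 823 CPM in control and Yap knockout members, 365 and 594 in the pit sets and 663 and 875 in the neck and chief sets. Members were thus 1.70-fold (1.47 to 1.95) and 1.38-fold (1.23 to 1.56) above the pit sets, while the intervals against the neck and chief sets (0.822 to 1.06 and 0.828 to 1.07) spanned 1.

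Against the pit set, few genes stood apart in both libraries. Of 2438 genes measured in both, 23 (0.943%) were at least 2-fold higher in the marker-poor cells and 12 (0.492%) at least 2-fold lower. The lower genes include pit genes the rule did not use. Tff1 was 4.24-fold (4.05 to 4.43) lower in control and 6.09-fold (5.70 to 6.51) lower in Yap knockout members than in the pit set of the same library. Lypd8, an antibacterial surface protein, was 2.87-fold and 6.14-fold lower, and the sulfotransferase Sult1c2 2.82-fold and 4.21-fold lower. Gsta1, a glutathione transferase, was 2.32-fold and 5.74-fold lower and Phgr1, a small histidine- and glycine-rich epithelial protein, 2.43-fold and 7.45-fold lower. Wfdc1, Smim24, Sptssb, Degs2 and Spink4 completed the 10 lowest. Degs2, a sphingolipid desaturase, was 8.21-fold lower in the Yap knockout, but in the control its interval (0.917 to 2.22) spanned 1.

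The genes higher than in the pit set were of another kind. Zfp791, a zinc finger protein, stood at 478 CPM in control members against 130 in the pit set and at 664 against 70.7 in the Yap knockout, 3.68-fold (3.00 to 4.54) and 9.38-fold (7.73 to 11.4). Taco1, a translational activator of mitochondrial cytochrome c oxidase subunit I, stood at 313 against 56.7 CPM and 239 against 48.5, 5.52-fold (4.11 to 7.51) and 4.92-fold (3.72 to 6.49). Neat1, the nuclear long noncoding RNA of paraspeckles, was 1.91-fold (1.64 to 2.21) and 3.62-fold (3.25 to 4.03) higher. Ccnb1ip1, Peak1, Atg4a, Snx24, Myo16, Rgs11 and Thsd4 completed the 10 highest, at 2.36-fold to 5.17-fold.

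Zfp791 and Taco1 were not detected in every member. Zfp791 had a UMI in 88 of 214 control and 70 of 134 Yap knockout members, and Taco1 in 65 and 48. In the control both were higher where the collagen share was high: Zfp791 stood at 688 CPM in the 158 members whose collagen and stroma genes took more than 1% of UMIs and at 82 CPM in the other 56, and Taco1 at 446 and 60 CPM. In the Yap knockout, however, the 132 members at or below 1% collagen had 669 CPM of Zfp791 and 226 of Taco1. With those 158 cells left out, Zfp791, Peak1 and Rgs11 were lower in control members than in the control pit set, with log2 ratios of -0.64, -0.37 and -0.51. The part of stromal RNA in these genes was not tested.

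Respiratory chain genes were lower than in the pit set. All 20 measured genes of an oxidative phosphorylation list had a negative mean log2 ratio, with a median of -0.49 against -0.04 over all genes, and none reached 2-fold. Of 27 measured genes of glutathione and carbonyl detoxification, the family that holds Gstm1 and Cbr3, 21 were lower and 6 higher, with a median of -0.42. These negative medians kept their sign in each library under each scaling tried. Most of the scalings lowered the ratios to the pit set, however, so they could hardly have turned a negative median positive. Of 16 immediate early and heat shock genes, which respond to stress and to tissue dissociation, 13 were higher, with a median of 0.17, and 11 of 12 collagen and stroma genes were higher, with a median of 0.30, but both medians turned negative in both libraries with edgeR's TMM scaling. That scaling lowered the log2 ratios to the pit set by 0.18 in the control and 0.55 in the Yap knockout.

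The mucin Muc5b and the pit peptide Tff1 were among the genes furthest above the neck and chief set. Of 2469 genes measured in both libraries, 19 (0.77%) were at least 2-fold higher and 7 (0.284%) at least 2-fold lower. Muc5b was 9.01-fold (7.63 to 10.7) higher in the control and 6.41-fold (5.52 to 7.47) higher in the Yap knockout. Tff1 was 8.70-fold (7.76 to 9.78) and 1.87-fold (1.72 to 2.04) higher. Slc5a5, the sodium/iodide symporter that is also made in the gastric mucosa, was 6.94-fold (3.80 to 13.7) and 11.5-fold (5.21 to 29.0) higher. Fer1l4 was 9.16-fold and 8.21-fold higher, and Taco1, Zfp791, Syt8, Phgr1, Rgs11 and Myl7 completed the 10 highest.

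Genes lower than in the neck and chief set include those of digestive and secretory pathway proteins. Pla2g1b, a secreted phospholipase A2 of zymogenic cells, stood at 146 CPM in control members against 840 in the set and at 323 against 1267 in the Yap knockout, 5.76-fold (4.66 to 7.18) and 3.92-fold (3.28 to 4.73) lower. Tmed6, a cargo receptor of early secretory transport, was 10.6-fold (4.31 to 33.5) and 6.10-fold (2.52 to 19.2) lower, on 5 member UMIs in each library. Spp1, which encodes the secreted matrix protein osteopontin, was 3.92-fold and 8.52-fold lower. Habp2, Bex4, Asns, Edem2, Lurap1l, Tmed3 and Endog completed the 10 lowest. Endog had an interval that spanned 1 in the control (0.728 to 1.70). Of 19 measured genes of mucin processing and secretory folding, 15 were lower and none reached 2-fold, with a median of -0.43 against -0.01 over all genes. Of 14 glycolysis genes, 13 were higher with a median of 0.30, which turned to -0.02 in the Yap knockout under TMM scaling.

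Members differed among themselves in the pit direction. Tff1 made up 0.2% or more of the UMIs in 73 of 214 control (34.1%) and 26 of 134 Yap knockout members (19.4%), a limit set after the values had been seen. In the control these Tff1-high members had 2886 CPM of Tff2 against 636 in the others, 2521 against 1184 CPM of Muc5b, 444 against 104 of Gsta1 and 414 against 206 of Sprr2a3. Clps, the colipase gene, went the other way, at 627 against 808 CPM in the control and 1251 against 2882 in the Yap knockout. The median depths of the Tff1-high and other control members were 1927 and 1991 UMIs.

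They also differed by their mitochondrial share, a sign of cell quality. The 57 control members with 5 to 20% mitochondrial UMIs had 11827 CPM of Cym, 303 of Gstm1 and 1220 of Krt8. The 102 control members under 2% had 53589, 1608 and 3196 CPM of the same genes. Pga5 stood at 21287 CPM in the first and 35165 in the second. Cmss1, a ribosome biogenesis factor, and the nuclear RNA Malat1 were higher in the first, at 7306 against 1845 CPM and 5291 against 1003, as was Muc5b, at 3202 against 1171. In the Yap knockout, 90 members lay under 2% and 11 in the upper range, with 40338 and 15632 CPM of Cym and 3168 and 5627 of Malat1. Cmss1 hardly differed there, at 16008 and 15709 CPM, and Muc5b went the other way, at 1207 and 535. When the Yap knockout members were split by depth, Cym stood at 18036 CPM in cells under 2000 UMIs and at 46927 in those with 5000 or more, and Cmss1 at 26421 and 9167.

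Clustering of the 861 Pga5-high cells without the 14 rule genes did not put the members into 1 group. Of 8 clusters, 7 held members. The 3 libraries were clustered together with no correction between them, and each cluster but cluster 2 came mainly from 1 library. Control cells were 122 of 130, 124 of 135, 58 of 64 and 49 of 57 in clusters 0, 1, 3 and 4. Yap knockout cells were 36 of 38, 149 of 152 and 120 of 122 in clusters 5, 6 and 7. Control members alone lay mainly in clusters 0 to 4 (47, 41, 61, 21 and 42). Those of the Yap knockout lay mainly in clusters 2, 6 and 7 (56, 42 and 32). Cluster 2 held 119 of the 363 (61 control, 2 YAP5SA and 56 Yap knockout) among 163 cells, with a median of 1872 UMIs and 4.55% mitochondrial UMIs. Zfp791, Taco1, Tm4sf1, Rbp7 and Peak1 were among its leading genes, with Ly6c1, known from endothelium, also in the first 10, and it was given no name. Cluster 4 was mostly members (50 of 57 cells, 42 of them control), with a median of 1575 UMIs and the leading genes P3h1, Alas2 and Smoc2.

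The other members lay in clusters with more cells of the pit set or the neck and chief set. Cluster 1 held 46 members with 86 pit cells and was led by Ndufa4l2, Wfdc1 and Phgr1, with Tff2 and Muc5b in its first 10. Cluster 0 held 49 members with 76 neck and chief cells and was led by Smim38, Zbtb47 and Tmed6. Cluster 3 held 23 members, 21 of them control, with 33 neck and chief cells, and its first 10 genes included Aebp1, Plac9, Dlk1, Pcolce, Loxl1, Mfap2 and Ogn, several of them matrix genes of stroma. Clusters 6 and 7, nearly all from the Yap knockout library, held 43 and 33 members. Cluster 6 had the hormone genes Ghrl and Chga and the stem cell receptor Lgr5 among its first 4 genes. Cluster 5, of 38 pit cells led by S100g and Krt20, held 0 members. At a resolution of 0.5 in place of 1.0 there were 5 clusters. One of them still held 120 members among 164 cells, but no counterpart of cluster 4 remained, and 93 members shared a cluster with 93 pit cells.

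**Figure D4:**
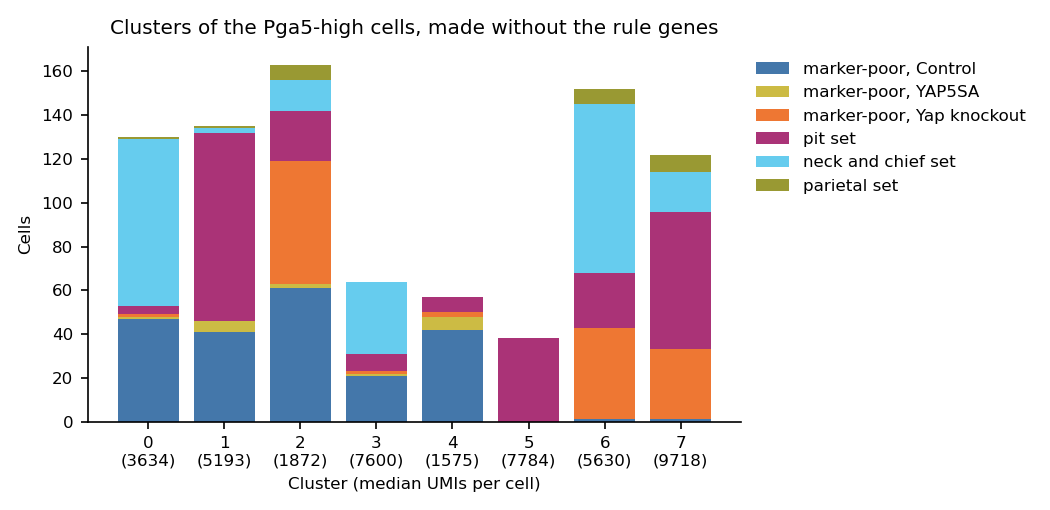
Clusters of the 861 Pga5-high cells, made without the 14 genes of the rule. Bars give the number of cells (vertical axis) per cluster, coloured by set and, for the marker-poor cells, by library; the median UMIs per cell stand under each cluster number. Marker-poor cells make up 119 of 163 cells in cluster 2 and 50 of 57 in cluster 4, the 2 shallowest clusters, and the rest lie in clusters with pit or neck and chief cells.

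RNA of other cell types was present in the members and differed between libraries. The 19 collagen and stroma genes summed to 13030 CPM in control, 6570 in YAP5SA and 2752 in Yap knockout members, with 19, 17 and 19 of them detected. They took more than 1% of UMIs in 158 of 214 control members (73.8%, 67.4 to 79.6), 1 of 15 YAP5SA members and 2 of 134 Yap knockout members. The other sets differed between libraries too. In the control, 84 of 107 pit cells (78.5%) and 48 of 109 neck and chief cells (44.0%) passed that limit. In the Yap knockout, 2 of 144 and 0 of 108 did so. The lowest control member had 0.541%, above the Yap knockout median of 0.269%. Haemoglobin genes summed to 10430, 30171 and 13159 CPM, with 5, 4 and 5 of 7 detected, and single cells held up to 23.3%, 30.6% and 63.4%. The 12 smooth muscle genes summed to 5962, 3771 and 4596 CPM, the 15 immune genes to 347, 1314 and 388, the 7 endothelial genes to 155, 24.3 and 127, and the 10 neuron and glia genes to 185, 48.7 and 492. No member exceeded 1% for the immune genes.

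The control members with and without a high collagen share differed in epithelial genes. The 56 members at or below 1% had 63871 CPM of Cym and 258 of Epcam, and the 158 above it had 34331 and 73. Gstm1 stood at 1640 and 1034 CPM. Tff1, Muc5b and Sprr2a3 went the other way, at 2767, 1072 and 207 CPM in the 56 and 3685, 1943 and 314 in the 158. The median depths were 2756 and 1907.5 UMIs.

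Between the Yap knockout and control members, the 10 highest and 10 lowest genes held none of the pit, neck or digestive enzyme lists. Of 3185 genes at 50 CPM or more in either sum, 271 (8.51%) were at least 2-fold higher in the Yap knockout and 197 (6.19%) at least 2-fold lower. With TMM scaling, which lowered these log2 ratios by 0.21, the split turned to 160 higher and 353 lower. The corresponding shares were 1.41% and 3.39% in the pit set, 3.46% and 4.14% in the neck and chief set, 2.08% and 0.75% in stromal cells and 2.16% and 4.31% in immune cells. The member sums held fewer UMIs than those of the other sets, and the part of counting error in these shares was not tested.

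Yap1, the gene floxed in the knockout, had 34 UMIs in control, 3 in YAP5SA and 7 in Yap knockout members, 50.6, 73.0 and 17.4 CPM. It was 2.91-fold (1.27 to 7.78) lower in Yap knockout than in control members. The pit set had 2.62-fold less and the neck and chief set 1.93-fold less, while stromal cells had 1.26-fold more. A 3′ tag need not lie in the deleted part and need not count a transgene, so these levels are a weak check of the labels.

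Several of the highest genes were also higher in the pit, neck and chief, stromal and immune groups of the Yap knockout library. Cmss1 stood at 3018 CPM in control and 18018 in Yap knockout members, 5.97-fold (5.68 to 6.28) higher, and was 3.22-fold higher in the pit set, 3.75-fold in the neck and chief set, 4.55-fold in stromal and 3.79-fold in immune cells. The kinase gene Camk1d was 4.98-fold (4.60 to 5.39) higher in members, 3.41-fold, 3.81-fold and 3.28-fold in the first 3 of those groups and 1.78-fold in immune cells. Ghrl, which encodes the hormone ghrelin, had 8 UMIs in control and 39 in Yap knockout members, 8.14-fold (3.75 to 20.2), and was 18.2-fold higher in the pit set, 5.29-fold in the neck and chief set, 4.96-fold in stromal and 1.47-fold in immune cells. The neuronal genes Tubb3, Crmp1 and Sncg were 6.18-fold, 8.01-fold and 6.37-fold higher in members, 2.90-fold, 1.81-fold and 4.09-fold in stromal cells and 2.67-fold, 1.92-fold and 3.39-fold in immune cells. In the pit set they were 3.02-fold, 1.68-fold and 2.88-fold higher, with an interval for Crmp1 (0.926 to 3.27) that spanned 1, and in the neck and chief set 3.15-fold, 2.65-fold and 2.88-fold. The apolipoprotein Apoa4 was 5.79-fold higher in members, 3.98-fold in the pit set, 7.98-fold in the neck and chief set, 4.04-fold in stromal and 6.18-fold in immune cells. Il1b, a cytokine, had 22 UMIs in Yap knockout and 0 in control members, at least 12.2-fold more with the control at 3 counts over the sum. Rmrp and Foxn2 were 7.23-fold and 7.68-fold higher in members, with 26 and 23 UMIs.

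The lowest genes were mostly stromal. Col1a1, type I collagen, stood at 5393 CPM in control and 778 in Yap knockout members, 6.93-fold (6.17 to 7.81) lower. It was 8.63-fold lower in the pit set, 10.2-fold in the neck and chief set and 9.63-fold in immune cells, and 1.37-fold lower in stromal cells. The stromal cells were chosen by collagen I and III genes at 1% or more of UMIs in each library. That choice itself keeps their Col1a1 level high in both, so their ratio cannot be set against the others. Mfap5, Plac9, Mfap4, Col1a2, Dcn, Aebp1, Rcn1 and Mmp2 were 5.92-fold to 25.2-fold lower in members, the last of these values, for Mfap5, on 1 Yap knockout UMI. All 17 measured collagen and stroma genes were lower in Yap knockout members and 14 by 2-fold or more, with a median log2 ratio of -1.92 against -0.00 over all genes. Phgr1 was the epithelial gene among the 10 lowest, 5.52-fold (3.73 to 8.47) lower in members, 1.80-fold in the pit set and 2.23-fold in the neck and chief set.

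**Figure D5:**
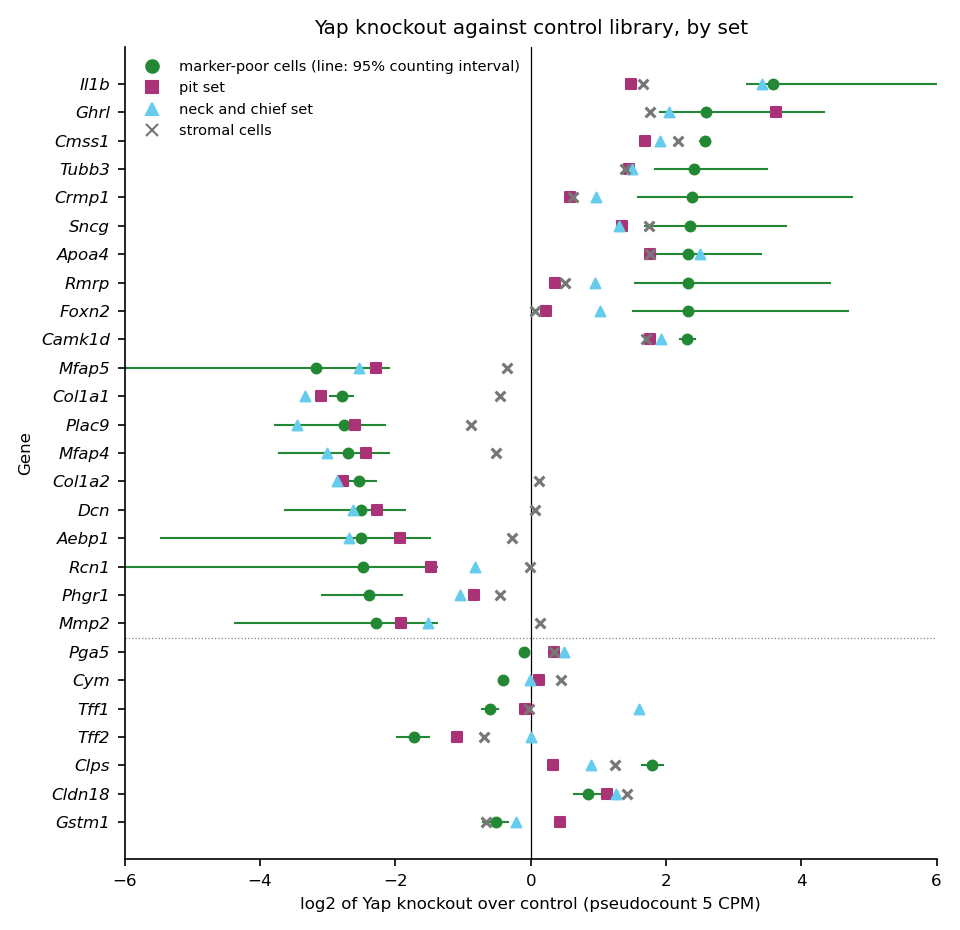
Yap knockout over control for the 10 highest and 10 lowest genes of the marker-poor cells and, under the dotted line, 7 further genes. The horizontal axis is the log2 ratio after 5 CPM was added to both levels; circles are marker-poor cells with their 95% counting interval, squares the pit set, triangles the neck and chief set and crosses stromal cells. Col1a1 is lower by 6.93-fold in the marker-poor cells and by 8.63-fold and 10.2-fold in the pit and neck sets. It is lower by 1.37-fold in stromal cells, which were chosen by their collagen level.

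Clps, Pla2g1b and Pgc were higher in Yap knockout members, whereas the more abundant Cym and Pga5 were not. Clps was at 746 CPM in control, 633 in YAP5SA and 2610 in Yap knockout members, 3.50-fold (3.14 to 3.90) higher in the knockout than in the control. It was 1.25-fold higher in the pit set, 1.86-fold in the neck and chief set and 2.55-fold in stromal cells, and 1 cell gave 21.9% of the Yap knockout members' Clps UMIs. At 1000 UMIs per cell, Clps was seen in 33.6% of control and 50.7% of Yap knockout members and in 3.6% and 11.9% of stromal cells. Pla2g1b was 2.21-fold (1.69 to 2.91) and Pgc 1.58-fold (1.17 to 2.14) higher in members. Of the 12 genes of the digestive enzyme list 4 were measured, 3 of them higher, with a median of 0.88. Of these 4 (Clps, Pla2g1b, Pgc and Pga5), all but Pla2g1b are genes the rule used.

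Pit genes and trefoil factors were lower. Tff2 was 3.33-fold (2.82 to 3.94) lower in Yap knockout than in control members, against 2.14-fold in the pit set and 1.00-fold in the neck and chief set. Tff1 was 1.52-fold (1.40 to 1.64) lower, against 1.06-fold in the pit set, and 3.06-fold higher in the neck and chief set. Of the 15 pit genes 4 were measured (Mucl3, Tff1, Ctse and Lypd8), all of them lower and 3 by 2-fold or more, with a median of -1.16. Mucl3 is a gene the rule limited. Bpifb1 was 1.68-fold (1.61 to 1.76) lower, Cym 1.33-fold (1.31 to 1.36) and Pga5 1.07-fold (1.05 to 1.10).

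The named marker genes were all lower in the knockout members, by less than 2-fold. Gstm1 was 1.43-fold (1.26 to 1.63) lower although it was 1.35-fold higher in the pit set, Cbr3 1.46-fold (1.04 to 2.07), Agr2 1.39-fold (1.12 to 1.75) and Sprr2a3 1.77-fold (1.32 to 2.39). Of 31 measured detoxification genes, 23 were lower, with a median of -0.52, and only Gsta1 and Gpx1, a glutathione peroxidase, were so by 2-fold or more. Mgst1, a membrane glutathione transferase, was the 1 gene of that list at least 2-fold higher, at 2.45-fold (1.21 to 5.07). Of 19 oxidative phosphorylation genes 17 were lower, with a median of -0.47, and of 14 glycolysis genes 12, with a median of -0.38. None of either list reached 2-fold.

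Epithelial structure and transcription factors differed less. Cldn18 was 1.80-fold (1.56 to 2.08) higher in Yap knockout members, and 2.19-fold, 2.40-fold and 3.17-fold higher in the pit set, neck and chief set and stromal cells. Krt8 was 1.32-fold (1.21 to 1.43) lower, and Epcam stood at 137 CPM in both. Hnf4a, a transcription factor of gut epithelium, was 2.65-fold (1.76 to 4.01) higher, the only one of 10 measured gastric and foregut transcription factors past 2-fold. Of 22 mucin processing genes 14 were higher, with a median of 0.21 (0.03 with TMM scaling), and Dnajb9 and Ddit3, both of the unfolded protein response, passed 2-fold.

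Few genes linked to YAP were measured. Of 26 YAP and TEAD target genes 5 reached 50 CPM in either member sum, 3 of them higher, with a median of 0.24. Anxa1, an annexin on that list, was the 1 gene of the 5 past 2-fold, 2.31-fold (1.27 to 4.51) lower. With the rule, mitochondrial and ribosomal protein genes left out of the total, the median of the target list was -0.71. The 50 CPM limit was applied anew under that total, so the target genes read can differ. The median log2 ratio over all genes read moved by only -0.04. Of 22 Hippo pathway genes 5 were measured and 4 were lower, with a median of -0.18. Of 23 fetal and regenerative epithelium genes 9 were measured and 7 were lower, 4 by 2-fold or more, with a median of -0.99. Summed, this list was higher in stromal cells than in members, at 9651 against 6817 CPM in the control and 7965 against 4069 in the Yap knockout. The part of stromal RNA in its difference was not tested. Wfdc2, a secreted protease inhibitor of that list, was 4.40-fold (2.91 to 6.91) lower in members, 1.93-fold in the pit set, 3.35-fold in the neck and chief set and 1.61-fold in stromal cells.

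The 15 YAP5SA members were too few for a comparison of their profile. Beside the values above, they had 3674 CPM of Krt8 and 268 of Anxa10, against 2784 and 620 in control members, and no Pgc UMI, which allows up to 73.0 CPM. Msln, a surface protein of mesothelium and of some fetal epithelia, had 10 UMIs in them (243 CPM), 28 in the 214 control members (41.7 CPM) and 3 in Yap knockout members (7.46 CPM).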

How the data were processed

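Libraries were made with the DNBelab C Series single-cell kit, a 3′ tag method. The authors deposited counts of UMIs by gene and by cell, made with PISA 1.0 per the file headers. STAR and GRCm39 are named in the submitters' processing notes. No source used here names a correction for free RNA.

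Members and the 31 gene lists were chosen with earlier results of these data known. UMIs were summed per set and library and scaled to CPM. Intervals are 95%, exact and conditional on the Poisson total for ratios, Clopper-Pearson for shares. Genes with at least 50 CPM in either sum were read, and 2-fold was the size named. Log2 ratios used a pseudocount of 5 CPM. Named genes were the 10 highest and 10 lowest log2 ratios (the 20 highest against the rest), by the mean over the control and Yap knockout libraries within libraries. Mitochondrial, ribosomal protein, haemoglobin, sex-linked and predicted genes were left out, as were the 14 rule genes within libraries. With 1 library per genotype no test was made, and the YAP5SA profile was not compared at under 20 members. Pga5-high cells were clustered by Leiden on 15 neighbours. Scrublet called no doublets at its own threshold, so doublets were kept and the highest 6% of scores left out as an alternative. The interval method was tested only on Poisson counts simulated from the control member sum. Such counts hold no spread between cells, so the test does not cover it. Versions were scanpy 1.11.5, anndata 0.12.19, scipy 1.17.1, numpy 2.4.6, pandas 2.3.3 and matplotlib 3.10.9 under Python 3.11.15, with edgeR 4.0.16 (TMM factors only) under R 4.3.3.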

Additional observations from a re-analysis of the deposited data

How the results depend on the processing

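No paired analysis was possible because each genotype has 1 library, and for the same reason there was no replicate to leave out. The alternatives limited to 1000 to 3000 UMIs, without the 10 deepest member cells, without haemoglobin-rich members or with Cmss1, Camk1d, Malat1 and Neat1 out of the total were chosen after seeing the data. Where a value below differs from that in the report, the cause was not tested.

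The control share of 2.90% became 2.53% with at most 10% mitochondrial UMIs, 1.74% with at least 1000 detected genes, 1.87% and 3.95% with Pga5 limits of 2% and 0.5%, 1.37% with stricter lineage limits (no pit gene and at most 1 neck or chief gene), 4.83% with the rule on thinned cells and 0.760% without members above 1% collagen. The Yap knockout share of 2.58% became 1.68% with 1000 genes, 1.04% and 5.33% with the Pga5 limits, 1.37% with the stricter lineage limits and 5.96% after thinning. The YAP5SA share of 0.166% became 0.0775% with the stricter lineage limits and was below both other shares under each alternative.

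The 271 genes higher and 197 lower in Yap knockout than in control members became 475 and 406 with stricter lineage limits, 48 and 98 with the thinned rule, 501 and 358 without collagen-rich members and 160 and 353 with TMM scaling. They became 619 and 454 from 20 CPM, 1068 and 887 with no filter, 125 and 128 with a pseudocount of 20 CPM, and 534 and 445 at 1000 to 3000 UMIs. The lower count alone passed 1.5 times its value with Pga5 at 2% (310), equal cell weights (302), rule, mitochondrial and ribosomal protein genes out of the total (322) and the 10 deepest cells left out (315).

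The 23 higher and 12 lower genes against the pit set became 50 and 36 with stricter lineage limits, 11 and 55 with the thinned rule, 6 and 23 with TMM, 52 and 22 from 20 CPM, 84 and 27 with no filter and 125 and 216 at 1000 to 3000 UMIs. The higher count was 13 with 10% mitochondrial UMIs, 9 with a pseudocount of 20 CPM and 42 without the 10 deepest cells, and the lower count 34 with equal cell weights. The 19 and 7 genes against the neck and chief set became 37 and 15 with stricter lineage limits, 67 and 31 with the thinned rule, 12 and 13 with TMM, 46 and 18 with equal cell weights, 33 and 17 from 20 CPM, 54 and 36 with no filter and 104 and 146 at 1000 to 3000 UMIs. The higher count was 10 without collagen-rich members and 34 without the 10 deepest cells. The lower count was 12 with Pga5 at 0.5% and 15 with rule, mitochondrial and ribosomal protein genes out of the total.

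Of 1820 values of named genes under the alternatives, 1531 lay within the counting interval of the reported value, 275 moved outside it in the same direction and 14 changed sign, given here as log2 ratios. With Pga5 at 2%, Phgr1 against the neck and chief set was -0.32 in the Yap knockout and Endog 0.11 in the control. With stricter lineage limits, Lurap1l and Endog were 0.044 and 0.11 against the control neck and chief set. With the thinned rule, Ccnb1ip1 was -0.091 against the control pit set and Endog 0.17 and 0.87 against the neck and chief sets of control and Yap knockout. Without collagen-rich members, Zfp791, Peak1 and Rgs11 were -0.64, -0.37 and -0.51 against the control pit set and Zfp791 -0.62 against the control neck and chief set. At 1000 to 3000 UMIs, Ccnb1ip1 and Snx24 were -0.27 and -0.00505 against the Yap knockout pit set and Asns 0.43 against its neck and chief set.

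YAP5SA reached the 20 members set as the minimum for a profile under 2 alternatives: 23 cells with Pga5 at 0.5%, with 438 genes higher and 323 lower than in the control of 3465, and 20 with the thinned rule, with 704 and 344 of 3533. These YAP5SA sums held only 91612 and 53322 UMIs. The median log2 ratios over the genes read were 0.21 and 0.31, an offset toward the higher side. The part of counting error and of that offset in the counts was not tested. The other alternatives planned for that profile gave no value.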
